A study of Rattus norvegicus with 12 samples.

Results

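The comparison described here set NFAT5KO cells against control cells in high-salt medium, and it used 6 of the 12 RNA-seq libraries of the series: 3 of NFAT5KO cells and 3 of control cells, each called a biological replicate by the submitters. All 6 came from UMR-106, a rat osteosarcoma line with osteoblast-like features that can produce fibroblast growth factor 23 (FGF23). The cells had been kept for 24 h in medium with 20 mM NaCl added (+NaCl), in the presence of calcitriol, the active form of vitamin D, which every group received. The control cells carried the unedited line's genotype (labelled WT). The NFAT5KO cells were the progeny of a single cell after CRISPR/Cas9 editing with guides aimed at the 5′ exons of Nfat5, so that what belongs to the loss of NFAT5 and what belongs to that clone cannot be told apart in any result below. The other 6 libraries, 3 per genotype, came from the same cells in medium with NaCl lowered by 20 mM (-NaCl) and served to show where the genotype difference depended on the medium.

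NFAT5, also called TonEBP, is the transcription factor through which mammalian cells answer a rise in tonicity. It moves into the nucleus, binds the tonicity-responsive enhancer (TonE) near its target genes and raises the transcription of transporters and enzymes that fill the cell with compatible organic osmolytes, together with chaperones and sodium pump subunits. In bone, osteoblasts lay down the collagenous matrix, mineralize it and signal to the kidney through FGF23.

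The RefSeq promoter windows of the rat genome (GRCr8, 250 bases before to 50 bases after each gene start) were searched on both strands for the TonE consensus. Stretches of 5 promoters are printed on the strand of the gene, with the match in capitals; 4 belong to genes that were lower in NFAT5KO cells and Wnt5a to one that was higher.
Slc6a6 (chr4:125752332-125752361): gccaagctgGTATTTTTCCAcccagcagga
Igfbp5 (chr9:81914381-81914410): cagtctcttTGGAAACTTCTgccgggggtt
Col11a2 (chr20:4817777-4817806): gcgagtgagGAAGGTTTCCAgccctcacac
Hspb1 (chr12:26432411-26432440): ttcaactagAGAAGTTTCCAgatgggggca
Wnt5a (chr16:3703508-3703537): atttggggtTGGAAAGCCCTaattaccgcc
The match read forward in Igfbp5 and Wnt5a and on the opposite strand in Slc6a6, Col11a2 and Hspb1. It began 161 bases before the gene start in Slc6a6 and 214 bases before it in Igfbp5. Such a match stood in 5.98% of all 33465 promoter windows and in 3.51% of the windows of 10463 tested genes. The share was 3.54% among 2007 genes lower in NFAT5KO cells, close to that of all tested genes, and 3.05% among 1837 that were higher. In the tonicity response list described below it was 6.67% (1 of 15), the 1 gene being Slc6a6. Matches also stood in windows of other named genes, such as the lower Nfkbia and Sgce and the higher Igf2 and Inhba. It was 6.4% (11 of 172) among genes whose genotype difference was more negative at +NaCl than at -NaCl. A match is a run of letters in this window and not a measured binding site.

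The 6 libraries held between 14267946 and 21676047 reads assigned to genes, recovered as whole reads from the deposited values. On the first principal component, which took 67.4% of the variance, the 3 NFAT5KO libraries lay on one side and the 3 control libraries on the other. The second component (9.44%) set NFAT5KO replicate 1 apart from NFAT5KO replicate 2. Every pair of replicates differed by more than sampling noise, with a chi-square per gene between 4.15 and 12.0. Osteoblast genes were abundant in both groups. Runx2, the transcription factor that commits cells to the osteoblast lineage, had 6196, 5989.6 and 6055 normalized reads in the control libraries and 5779.6, 5886 and 5850.5 in the NFAT5KO libraries, and the difference did not pass the test (log2 difference -0.06, SE 0.04, adjusted p = 0.31, limma). Normalized reads here are reads divided by size factors estimated over the 6 libraries together. Since these are bulk samples, fewer cells expressing a gene and less RNA per cell cannot be told apart.

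Nfat5 itself (ENSRNOG00000011879, chr19:38446059-38533735 as the tables list it) had 4092, 4012 and 4334 normalized reads in control cells and 1283, 1454 and 1486 in NFAT5KO cells. Every NFAT5KO library lay below every control library, with a log2 difference of -1.56 (SE 0.06, adjusted p = 1.3e-08). The direction goes with the labels, but a gene-level value does not show whether the remaining RNA spans the edited exons or codes for protein. The study itself reported complete loss of the NFAT5 protein by immunoblot. It also detected no Nfat5 mRNA in NFAT5KO cells by qRT-PCR, for which it lists separate primers. Of the related calcium-dependent NFAT factors, Nfatc3 was slightly higher (log2 difference 0.16, adjusted p = 0.037), but did not pass without control replicate 1, 2 or 3 or NFAT5KO replicate 1 or 3 (0.11 to 0.17).

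Across the transcriptome, 16717 genes were tested with limma on log2(normalized reads + 1), and a gene passed at a Benjamini-Hochberg adjusted p under 0.05. In NFAT5KO cells 2582 genes were higher (15.4% of those tested) and 2805 were lower (16.8%), 5387 in all (32.2%). Most differences were moderate, with a median absolute log2 difference of 0.40 among the genes that passed. At least 2-fold differences were more often decreases, with 622 genes lower (3.72%) and 254 higher (1.52%). The median over all tested genes was -0.0034 on the log2 scale, with quartiles of -0.29 and 0.23, and the lists below are read against these values. The control and NFAT5KO libraries did not overlap in 44.99% of all tested genes. Among genes that passed, this held for 2540 of the 2582 higher and 2770 of the 2805 lower. For a gene that passed, a gap between the groups therefore adds little to the test. The gene lists are descriptive, their members having been chosen with results of these libraries known.

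**Figure D1:**
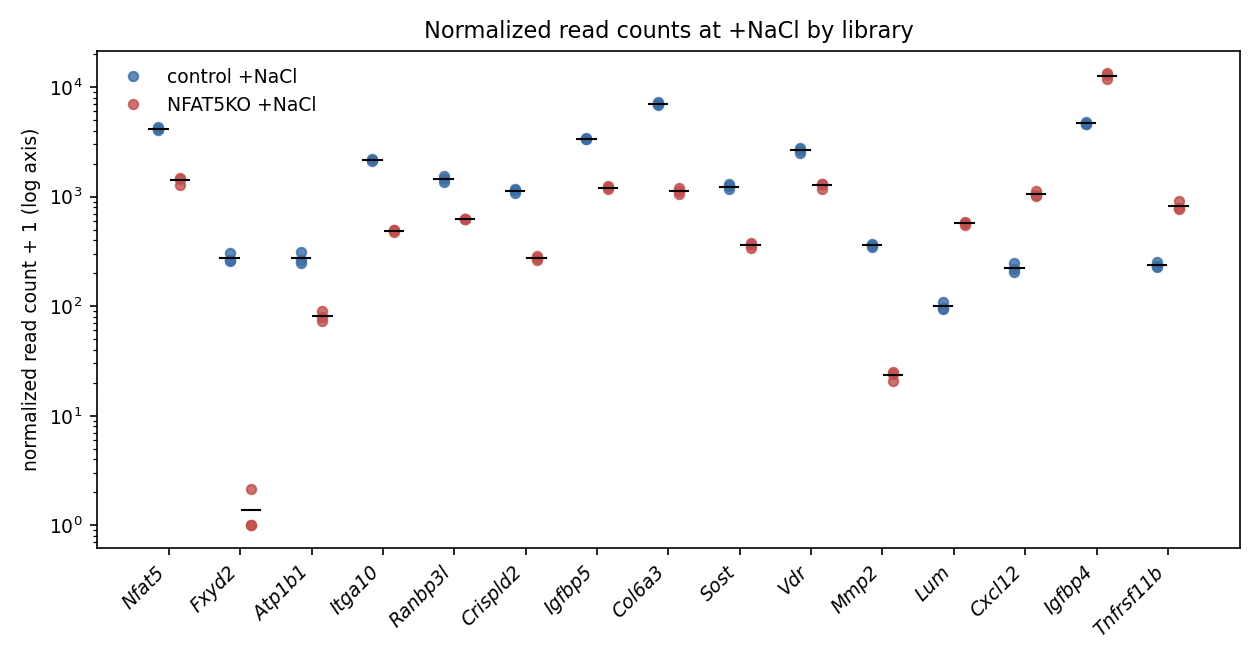
Normalized reads + 1 (log axis) of 15 genes in each of the 6 +NaCl libraries, with 1 dot per library, control and NFAT5KO side by side, and a line at the group mean. The dots of the 2 groups do not overlap for any gene shown, as for most genes that passed. Fxyd2 drops from between 257 and 304 to at most 1.17, whereas Cxcl12, Igfbp4, Lum and Tnfrsf11b are higher in NFAT5KO cells.

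The genes of the tonicity response were mainly lower in NFAT5KO cells. Of 20 tested members, 15 fell and 2 rose, and the median log2 difference was -0.73. The list includes genes that the study itself picked on these libraries, so its direction is not independent evidence. Fxyd2 (ENSRNOG00000016469), the gamma subunit that tunes the kidney sodium pump, had 257, 262 and 304 normalized reads in control cells and 1.17, 0 and 0 in NFAT5KO cells. This came to 832 reads against 1, a ratio of 847 (exact 95% interval 152 to 33503, counting error only). Atp1b1, the beta subunit that brings the pump to the membrane, was lower as well, with 311, 264 and 248 normalized reads in control cells against 79.3, 73.0 and 89.1 (log2 difference -1.76, SE 0.13, adjusted p = 2.8e-06). No NFAT5KO library reached a control library for either gene, as in most genes that passed as lower.

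The osmolyte genes Slc6a6 and Akr1b1 moved less than Fxyd2 and Atp1b1, and Slc5a3 of the tonicity list had no values here. Slc6a6, the taurine transporter whose promoter window is printed above, had 5453, 6228 and 6383 normalized reads in control cells and 4884, 4951 and 5208 in NFAT5KO cells, a log2 difference of -0.26 (adjusted p = 0.006). Akr1b1, the aldose reductase that makes sorbitol, had 2488, 2324 and 2578 against 2060.3, 1878 and 1954 (-0.33, adjusted p = 8.6e-04). Aqp1, a water channel, differed by -0.25 (adjusted p = 0.0091). The control and NFAT5KO libraries did not overlap in any of the 3 genes, as in most genes that passed. Slc38a2, which takes up small neutral amino acids as osmolytes, fell more, from 9408, 9879 and 10344 to 5942, 5941 and 6171 (-0.71, SE 0.05, adjusted p = 9.7e-07). Hspa4l, an osmotic stress cochaperone, fell from 322, 293 and 325 to 134, 134 and 151 (-1.16, adjusted p = 9.2e-06).

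Other members named as tonicity genes spanned a wide range. Itga10, the collagen-binding alpha 10 integrin, had 2185, 2159 and 2109.6 normalized reads in control cells and 476, 493 and 497 in NFAT5KO cells (log2 difference -2.14, SE 0.05, adjusted p = 8.8e-10). Cemip, which degrades hyaluronan, fell from between 1455 and 1594 to between 558 and 626 (-1.35). Ranbp3l, a nuclear export protein, fell from between 1369 and 1549 to between 617 and 625 (-1.23). The groups did not overlap in any of the 3, as in most genes that passed. Sgk1, the serum and glucocorticoid-regulated kinase, went the other way, with 180.3, 206 and 196 in control cells and 274, 234 and 282 in NFAT5KO cells (0.44, SE 0.11, adjusted p = 0.0088). Pnpla6, a phospholipase that releases the osmolyte glycerophosphocholine, was lower by 0.29 (adjusted p = 0.0044).

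Among the genes of sodium transport and cell volume, 13 of 29 fell and 2 rose, with a median of -0.31. Atp1b1, described above, is counted among the 13 as well. Fxyd5, another FXYD regulator of the pump, had 118, 141 and 119 against 0, 2.18 and 2.32. Atp1b3 was lower by 0.28 and the sodium-calcium exchanger Slc8a1 by 0.74. Trpv4, a swelling-activated calcium channel, had 3129.9, 3052 and 3116 against 1904, 1953 and 1970.0 (-0.67, adjusted p = 7.3e-07). The kinase gene Snrk did not pass (0.15, adjusted p = 0.094).

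Fgf23, the hormone gene the study set out from, was at the limit of these libraries at +NaCl. It had 0, 3.12 and 0 normalized reads in control cells and 1.17, 2.18 and 4.65 in NFAT5KO cells, and a genotype difference was not detectable at this depth (adjusted p = 0.32). Of 18 tested genes of FGF23 production and processing, 10 were lower and 4 higher, with a median of -0.37. With edgeR and with DESeq2 9 were lower. Fgfr3, counted as lower, did not pass without control replicate 1, 2 or 3 or NFAT5KO replicate 1 or 3 (log2 difference -0.24 to -0.15). Phex, a membrane endopeptidase whose loss raises FGF23, had 187, 176 and 195 against 51.3, 57.7 and 50.3 (log2 difference -1.79, SE 0.14, adjusted p = 3.9e-06). Vdr, the vitamin D receptor that answers the calcitriol in the medium, had 2786, 2469 and 2643 against 1302, 1176 and 1308 (-1.06, SE 0.06, adjusted p = 3.4e-07). The libraries of the 2 groups did not overlap for Phex or Vdr, as in most genes that passed.

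The proprotein convertases, which cut FGF23 and other secreted proteins, did not move together. Furin had 1879, 1703 and 1744 normalized reads in control cells against 1163, 997 and 1212 (log2 difference -0.66), and Pcsk6 had 1284, 1206 and 1157 against 351, 366 and 371 (-1.74). Pcsk5 was higher in NFAT5KO cells, at 569, 597 and 565 against 284, 293 and 259 (1.05, adjusted p = 2.1e-06). Fgfr1, the receptor through which FGFs signal in osteoblasts, was higher by 0.47. Dmp1, a matrix protein that restrains FGF23, was lower by 0.68 (adjusted p = 0.0013), and Nfkbia, the inhibitor that holds NF-kB in the cytosol, by 0.65. The pyrophosphate genes split, with the exporter Ankh lower by 0.52 and the generator Enpp1 higher by 0.28.

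The osteoblast program was lower in part. Of 25 tested osteoblast genes 13 fell and 2 rose (median -0.26), and the summed level of the list ranged from 145250 to 152360 normalized reads in control libraries and from 122720 to 126150 in NFAT5KO libraries. Bmp2 and Fgfr3, counted among those that fell, did not pass in some fits with a library left out. Alpl, the alkaline phosphatase that frees phosphate for mineral, had 17405, 16368 and 16960.0 against 10719, 9274 and 10505 (log2 difference -0.74, SE 0.06, adjusted p = 3.5e-06). Ibsp, bone sialoprotein, had 27916, 26154 and 25762 against 15074, 15518 and 15867 (-0.78, adjusted p = 6.5e-07). Sost, the sclerostin gene of the osteocyte, had 1249, 1292 and 1158 against 341, 378 and 363 (-1.77, SE 0.07, adjusted p = 1.2e-08). The lineage factor Sp7 fell by a smaller 0.26. Col1a1, the main chain of bone collagen, did not pass the test, with 26560.0, 25681 and 26672 against 26473, 22971 and 27054. Spp1, osteopontin, did not pass either, and its groups overlapped. Tnfrsf11b, the osteoprotegerin decoy receptor that restrains osteoclasts, rose from 228, 253 and 229.7 to 902, 771 and 786 (1.79, SE 0.08, adjusted p = 7.9e-08), and the cadherin Cdh11 rose by 0.64.

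**Figure D2:**
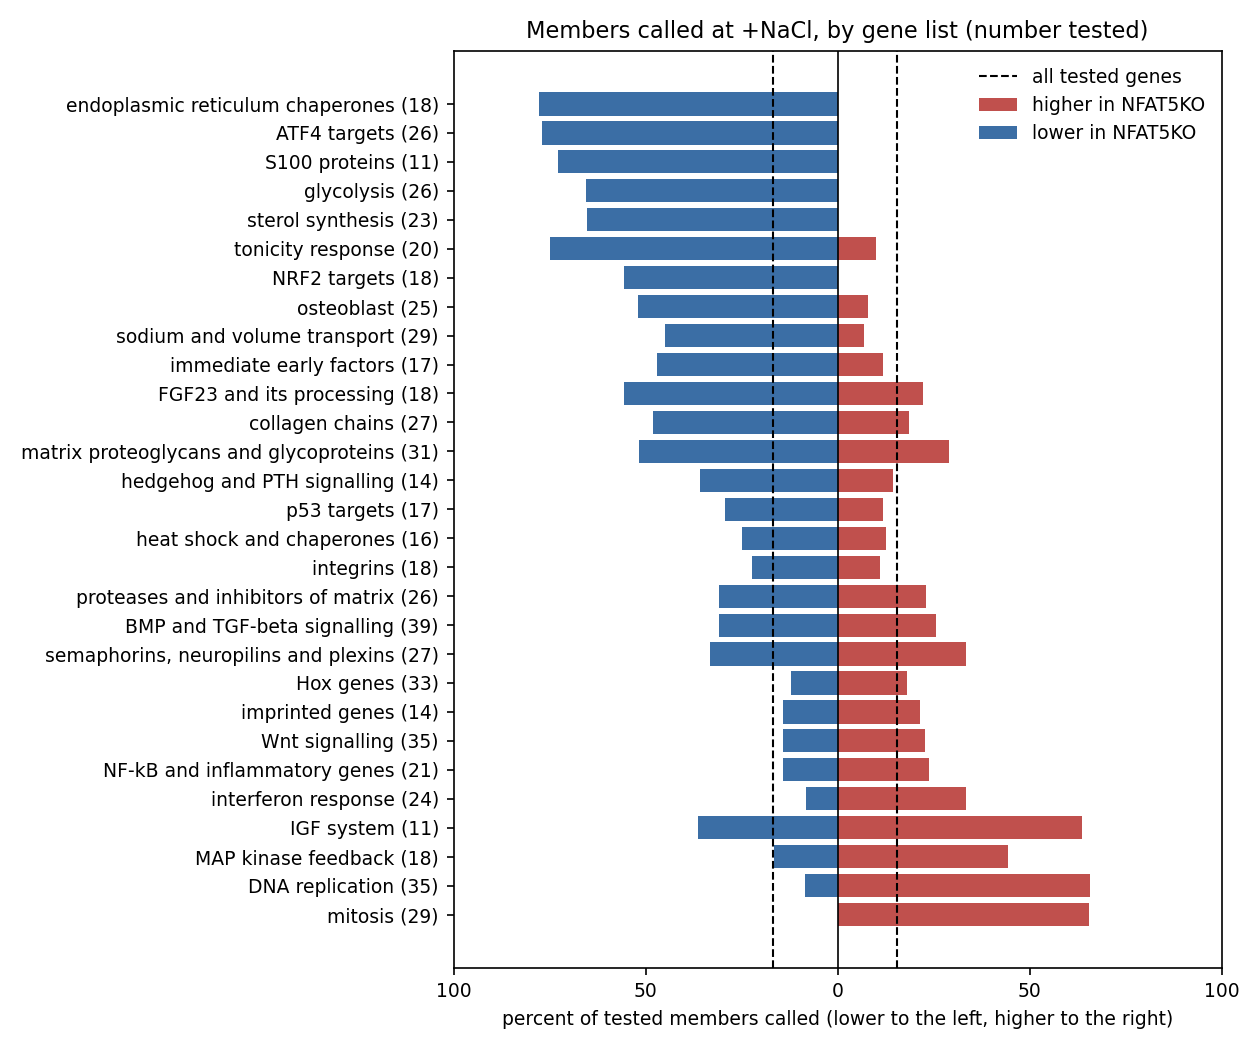
Percent of the tested members of each gene list that were higher (one colour) or lower (the other) in NFAT5KO cells at +NaCl, with dashed lines at the shares of all tested genes (15.4% higher and 16.8% lower). The tonicity, ATF4, endoplasmic reticulum chaperone and S100 lists lie mostly on the lower side, and DNA replication and mitosis on the higher side.

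Matrix genes changed by chain and by family. Of 27 collagen chain genes 13 fell, 10 of them at least 2-fold, and 5 rose. The type VI collagen genes, which code for the microfibrils around cells, fell together. Col6a3 had 6966, 6838 and 7248 normalized reads in control cells and 1190.0, 1046 and 1128 in NFAT5KO cells (log2 difference -2.65, SE 0.05, adjusted p = 2.9e-10). Col6a1 had 452, 476 and 499 against 71.2, 83.8 and 74.3 (-2.62), and Col6a2 had 3566, 3353 and 3557 against 1847, 1645 and 1581 (-1.05). Col11a2, a fibril chain of cartilage whose window is printed above, had 1338, 1127 and 1233 against 199.5, 191 and 221 (-2.59, adjusted p = 6e-09). Col22a1, found at tissue junctions, was lower by 1.48. The libraries of the 2 groups were separate for each of these chains, as for most genes that passed.

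Proteoglycans and glycoproteins of the matrix went both ways, with 16 of 31 lower and 9 higher. Acan, the large cartilage proteoglycan, had 157, 111 and 150.4 normalized reads in control cells against 9.33, 6.53 and 10.8 (log2 difference -3.83, SE 0.27, adjusted p = 1.4e-06). Comp, which bridges cartilage collagen fibrils, had 105, 108 and 98.8 against 22.2, 12.0 and 17.8 (-2.56). Crispld2, a secreted glycoprotein, had 1139, 1086 and 1173 against 272, 284 and 260.2 (-2.05, SE 0.07). The opposite was seen for Lum, a small leucine-rich proteoglycan that spaces collagen fibrils, with 93.9, 108 and 96.1 against 549.5, 581 and 569 (2.50, SE 0.10, adjusted p = 1.2e-08). Fbln5, needed for elastic fibres, rose from 233, 227 and 215 to 936, 987 and 963 (2.09, SE 0.07). Hapln1, which links aggrecan to hyaluronan, rose by 0.58 while Acan fell.

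Of 26 matrix proteases and inhibitors 8 fell and 6 rose. Mmp2, a gelatinase, had 365, 364 and 346 normalized reads in control cells and 19.8, 24.0 and 23.2 in NFAT5KO cells (log2 difference -3.95, SE 0.15, adjusted p = 1.2e-08). Mmp9, the other gelatinase, fell from 418, 474 and 502 to 179.7, 172 and 203 (-1.32), and the inhibitor Timp3 from 404, 418 and 483 to 96.8, 123 and 136 (-1.87). Mmp13, the collagenase of bone remodelling, rose from 309, 315 and 379 to 667, 615 and 604 (0.91, SE 0.09, adjusted p = 2e-05). Gelatinases and collagenase thus differed in direction. Of 18 integrin genes 4 fell and 2 rose (33.3%, near the 32.2% of all tested genes). Itga10 had the smallest p among them. Itga4 and Itga6 fell by 1.08 and 0.42, whereas Itgb5 rose by 0.34.

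Secreted signals showed no common direction. Of 35 Wnt genes 8 rose and 5 fell, with a median of -0.01. The share that passed was 37.1%, against 32.2% of all tested genes. Sostdc1, a secreted antagonist related to sclerostin, had 496, 441 and 491 normalized reads in control cells and 1262, 1240.2 and 1284 in NFAT5KO cells (log2 difference 1.41, SE 0.06, adjusted p = 5.6e-08), opposite to Sost. Wnt5a, a non-canonical ligand whose window is printed above, rose from 1125, 1139 and 1094 to 2245, 2126 and 2287 (0.99, SE 0.05). Fzd6, a Wnt receptor, fell from 2963, 2826 and 2783 to 1116, 1147 and 1096 (-1.35, SE 0.05, adjusted p = 8.2e-09). The groups were separate in all 3 genes, as in most genes that passed.

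Of 39 genes of BMP and TGF-beta signalling, 12 fell and 10 rose. Bmp7, an osteogenic ligand, had 1149.8, 1271 and 1234 normalized reads in control cells against 626, 546 and 619 (log2 difference -1.03, adjusted p = 1.1e-06), and Nog, a BMP antagonist, fell by 0.64. Inhba, the activin A subunit, rose from 201, 186 and 210.1 to 357, 395 and 357 (0.89, adjusted p = 3e-05), and Tgfbr3, a TGF-beta coreceptor, rose by 0.87. Of 14 hedgehog and PTH genes 5 fell and 2 rose. Ihh, the ligand that couples growth cartilage to bone, had 180.3, 138 and 149 against 39.7, 22.9 and 26.3 (-2.38, adjusted p = 1.5e-05). Hhip, which captures hedgehog ligands, fell by 0.76, and Pth1r, the parathyroid hormone receptor, from 6060.1, 6040.5 and 6308 to 4574, 4478 and 4493 (-0.44).

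All 11 tested genes of the IGF system passed, 7 higher and 4 lower, against 32.2% of all genes. The binding proteins, which sequester IGFs outside the cell, went in opposite directions. Igfbp4 had 4834, 4558 and 4610.0 normalized reads in control cells and 12895, 11722 and 13291 in NFAT5KO cells (log2 difference 1.44, SE 0.05, adjusted p = 1.2e-08). Igfbp5, the binding protein of bone matrix whose window is printed above, had 3359.9, 3355 and 3402 against 1245, 1163 and 1212 (-1.48, SE 0.05, adjusted p = 5.2e-09). The growth factor Igf2 rose by 0.60 and the receptor Igf2r, which clears it, by 1.08. Igfbp7, which the study lists among tonicity genes, overlapped between groups at 1067, 1046 and 1197 against 1399, 1147 and 1376. Its difference of 0.24 (adjusted p = 0.040) did not pass without control replicate 1 or 2 or NFAT5KO replicate 1 or 3 (0.19 to 0.22).

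Of 27 semaphorins, neuropilins and plexins, which guide axons and vessels and act in bone cell communication, 9 rose and 9 fell. Sema3b fell from 702, 738 and 742 to 288, 239.6 and 214 normalized reads (log2 difference -1.56, adjusted p = 8.6e-07), and Sema4c rose by 0.53. The S100 calcium-binding proteins were lower in 8 of 11 genes, with a median of -0.81, and 0 were higher by limma, edgeR, DESeq2 or an unadjusted limma p under 0.05. S100a4, a motility protein, had 4106, 3541 and 3568 in control cells and 1206, 813 and 1331 in NFAT5KO cells (-1.77, SE 0.14, adjusted p = 4.2e-06). S100a10 and S100a11, which bind annexins, fell by 0.44 and 0.39.

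Cytokine and interferon genes were more often higher than lower among those that passed. Of 21 NF-kB and inflammatory genes 5 rose and 3 fell, and of 24 interferon genes 8 rose and 2 fell. These were 38.1% and 41.7% of the lists, against 32.2% of all tested genes. Cxcl12, the chemokine that holds haematopoietic cells in marrow, had 245, 203 and 217 normalized reads in control cells and 1032, 1132 and 1013 in NFAT5KO cells (log2 difference 2.25, SE 0.08, adjusted p = 1.2e-08). Ifitm3, an antiviral membrane protein, rose from 323, 337 and 311 to 700.0, 637 and 713 (1.08, SE 0.07). Irf1, a transcription factor of the interferon response, rose by 0.78, and B2m, the MHC class I light chain, by 0.34 (SE 0.04). Nlrc5, the activator of MHC class I genes, rose from 27.0, 22.9 and 21.4 to 126, 114 and 118 (2.29). Csf1, a macrophage growth factor, went the other way and fell by 0.39.

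The amino acid stress program driven by ATF4 was lower. Of 26 ATF4 target genes 20 fell, with a median of -0.48, and 0 rose by limma, edgeR, DESeq2 or an unadjusted limma p under 0.05. Asns, asparagine synthetase, had 565, 921 and 922 normalized reads in control cells and 477, 432 and 465 in NFAT5KO cells (log2 difference -0.77, adjusted p = 0.0027), with control replicate 1 nearest to the NFAT5KO libraries. Chac1, which degrades glutathione, had 64.8, 197 and 210.1 against 19.8, 25 and 25.6, and Trib3, a pseudokinase of the same program, 76.7, 202 and 282 against 19.8, 27.2 and 38.7. Control replicate 1 was again the lowest of the control libraries in both. The transporter Slc7a5, which imports large neutral amino acids, fell from 1211, 1555 and 1528 to 799, 787 and 836 (-0.82, SE 0.09, adjusted p = 3.4e-05).

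Chaperones of the endoplasmic reticulum fell in 14 of 18 genes (median -0.40) and rose in 0 by any of the same 4 criteria. Hspa5, the BiP chaperone, had 9353, 10935 and 11701 normalized reads in control cells and 6455, 5971 and 6283 in NFAT5KO cells (log2 difference -0.77, SE 0.07, adjusted p = 1.4e-05). Sdf2l1, a stress-induced partner of that compartment, fell from 798, 842 and 788 to 384, 229 and 277 (-1.48). Of 16 cytosolic heat shock genes only 4 fell and 2 rose (37.5%, against 32.2% of all tested genes). Those that fell were mainly small heat shock proteins. Hspb8 had 935, 907 and 915 against 100.3, 69.7 and 84.4 (-3.44, SE 0.12, adjusted p = 8.2e-09). Hspb1, whose window is printed above, had 276, 264 and 236 against 105, 77.3 and 77.4 (-1.58), and Cryab, alpha B-crystallin, 187, 152 and 207 against 33.8, 41.4 and 52.7 (-2.08). Of 18 NRF2 targets, the genes of antioxidant defence, 10 fell and 0 rose by limma, edgeR or DESeq2 (1 at an unadjusted p under 0.05). Among those that fell were the ferritin light chain Ftl1 (-0.52) and glutathione reductase Gsr (-0.42).

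Metabolic genes were lower as well. Of 26 glycolysis and hypoxia-regulated genes 17 fell, with a median of -0.45, and 0 rose by limma, edgeR or DESeq2 (1 at an unadjusted p under 0.05). Slc16a3, the lactate exporter, had 316, 285 and 269.7 normalized reads in control cells against 14.0, 26.1 and 13.2 in NFAT5KO cells (log2 difference -4.02, SE 0.24, adjusted p = 5.3e-07). The hexokinases Hk1 and Hk2, which trap glucose, fell by 0.96 and 0.72, and the enolase Eno1 from 15972, 15809 and 16003 to 9642, 8182 and 9789 (-0.80, SE 0.06). Of 23 genes of sterol synthesis 15 fell by modest amounts and 0 rose by limma or edgeR (1 by DESeq2 and 1 at an unadjusted p under 0.05). Fdps, which makes farnesyl diphosphate, had 8833, 8699 and 8531 against 6732, 6272 and 6898 (-0.39, adjusted p = 8.7e-05), and Idi1, the isomerase before it, was lower by 0.56.

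Cell cycle genes were higher in NFAT5KO cells by small amounts. Of 35 DNA replication genes 23 rose and 3 fell (median 0.22), and of 29 mitosis genes 19 rose (median 0.25) and 0 fell by limma, edgeR, DESeq2 or an unadjusted limma p under 0.05. The differences stayed under 2-fold. Top2a, the topoisomerase of dividing cells, had 9426, 9855 and 9724 normalized reads in control cells and 13615, 13670.0 and 13010.0 in NFAT5KO cells (log2 difference 0.47, SE 0.04, adjusted p = 1.2e-05). Mki67, the proliferation marker, rose from 5019, 4967 and 4901 to 6249, 6122 and 6495 (0.34). Cdt1, which licenses replication origins, rose by 0.47. Cdkn1a, the p21 inhibitor of cyclin-dependent kinases, fell from 571, 577 and 589 to 229, 206 and 222 (-1.40, SE 0.08, adjusted p = 2.8e-07). Of 17 p53 targets 5 fell and 2 rose (41.2%, against 32.2% of all tested genes). The share of cells in each phase was not measured.

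Of 18 feedback genes of MAP kinase signalling 8 rose and 3 fell. Etv4, a transcription factor induced by FGF signalling, had 110.1, 107 and 95.2 normalized reads in control cells and 232, 283 and 269 in NFAT5KO cells (log2 difference 1.32, adjusted p = 1.3e-05). Dusp4, a nuclear phosphatase of the pathway, rose from 549.5, 554 and 562 to 1015, 1198 and 1136 (1.00, SE 0.07). Dusp1, a related phosphatase that is induced by stress, fell instead, from 1103, 1009 and 1265 to 636, 623 and 652 (-0.81, SE 0.08). Of 17 immediate early factors 8 fell and 2 rose, with Klf2 and Klf4 lower by 0.53 and 0.39. Of 33 Hox genes, which encode body position, 6 rose and 4 fell, or 30.3% against 32.2% of all tested genes. Hoxd10 had 15.1, 16.6 and 11.6 against 67.7, 53.4 and 61.2 (2.01, adjusted p = 1.6e-04). Of 14 imprinted genes 3 rose and 2 fell (35.7%), near the share of all tested genes. Among them were Mest, higher by 0.36, and Sgce, lower by 1.84.

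Markers of other lineages were read as a check of what the cultures held. Of 13 chondrocyte markers 7 fell and 2 rose, and their summed level was 3822 to 4091 normalized reads in control libraries and 2923 to 3089 in NFAT5KO libraries. Col2a1, the defining collagen of cartilage, was near the floor at 23.8, 30.1 and 21.4 against 1.17, 1.09 and 9.29. The summed levels were 844 to 927 against 1111 to 1208 for adipocyte markers, 384 to 520 against 495 to 546 for endothelial markers, and 1989 to 2152 against 1785 to 1981 for muscle markers. The adipocyte sum was higher in NFAT5KO libraries although the list's median log2 difference was -0.92, and Lpl was the only adipocyte marker that passed as higher. Of 8 tested genes in each of the adipocyte, endothelial and muscle lists, 1 rose and 3 fell for adipocyte, 1 rose and 1 fell for endothelial, and 2 fell for muscle markers. The shares were 50%, 25% and 25%, against 32.2% of all tested genes. Not all of these calls held without 1 of the libraries. With each of the 6 libraries left out in turn, Cd36 and Cfd (adipocyte, lower, with means of 4.76 and 3.91 normalized reads) did not pass in 5 of the fits, and Ckm (muscle, lower) and Egfl7 (endothelial, higher) did not pass in 4. DESeq2 called 1 adipocyte and 1 muscle marker lower. For leukocyte markers the sum was 669 to 859 in control libraries and 188 to 225 in NFAT5KO libraries. Here 3 of 8 genes were lower and 1 higher (50%, against 32.2% of all tested genes). Of these, Fcer1g (lower) did not pass in 5 of the 6 fits and Cd14 (higher) in 4, and DESeq2 called 2 lower and did not call Cd14. The defining gene Ptprc (CD45) had 6 reads over the 3 control libraries. Most of the gap was Coro1a, an actin-binding protein, at 557, 417 and 406 against 12.8, 6.53 and 5.42. Of 10 neural markers 2 fell and 1 rose (30%, near the 32.2% of all tested genes). Their sum was 1422 to 1491 against 815 to 866. Sox2, a stem cell factor, carried much of the gap at 622, 553 and 611 against 47.8, 56.6 and 52.7. The part of such genes in the other results was not tested.

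Some genes were nearly silent in NFAT5KO cells and well expressed in control cells. Rpl39l (ENSRNOG00000032300), a paralogue of a large-subunit ribosomal protein gene, had 1533, 1614 and 1432 normalized reads in control cells and 0, 2.18 and 3.87 in NFAT5KO cells. This was a ratio of 667 in reads (exact 95% interval 323 to 1659, counting error only). Near-identical Rpl39 copies exist, and how the counting split reads among them is not given. Cthrc1, a secreted protein of collagen matrix and Wnt signalling, had 397, 439 and 444 against 1.17, 4.36 and 6.2 (log2 difference -6.61, SE 0.37, adjusted p = 3.3e-07). Spint2, an inhibitor of membrane serine proteases, had 242, 227 and 215 against 5.83, 1.09 and 0.77, and Agfg2 had 226, 208 and 225 against 2.33, 3.27 and 1.55. Mt2A, a metal-binding metallothionein, had 164, 195 and 190.5 against 7.0, 1.09 and 6.97 (-5.17). Mtrf1, a mitochondrial translation factor, had 437 reads against 1, a ratio of 445 (interval 79.5 to 17616). In the -NaCl libraries each of these 6 genes passed as lower in NFAT5KO cells too.

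A further 1356 genes were listed in the control table only and 776 in the NFAT5KO table only, and both sets had a median of 2 reads over the +NaCl group. At 50 reads or more over the 3 +NaCl libraries there were 32 genes in the control table only and 0 in the NFAT5KO table only. Rhox2, a homeobox gene of a cluster on the X chromosome, led with 599 reads (182, 175 and 242). A gene that is not listed has no value in NFAT5KO cells. If Rhox2 had at most 3 reads over that group, which is assumed and not measured, it was at least 203-fold lower there. Axl, a receptor tyrosine kinase, had 236 reads, Tfap2c, a transcription factor of early lineages, 182, and Thy1, a surface glycoprotein of mesenchymal cells, 85. Such genes were absent from the fits above, since a gene had to be listed in both tables.

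The genes most increased in NFAT5KO cells reached smaller folds. Among those with a mean of at least 50 normalized reads, Lcp2, an adaptor protein of immune receptor signalling, rose from 22.7, 23.9 and 18.7 to 150.5, 156 and 170.4 (log2 difference 2.82, SE 0.19, adjusted p = 1.1e-06). Runx1t1, a transcriptional corepressor, rose from 42.1, 37.4 and 64.1 to 222, 285 and 216 (2.33), and Gdf7, a BMP family ligand, from 28.1, 21.8 and 22.2 to 106, 118 and 99.1 (2.12). No NFAT5KO library came down to a control library in any of the 3, although the control libraries of Runx1t1 spread from 37.4 to 64.1. Gstm5, a glutathione transferase of a family of near-identical copies, had the largest value (3.50) but did not hold together, with 264, 739 and 20.9 in NFAT5KO cells against 17.3, 10.4 and 13.3. Without NFAT5KO replicate 1 it did not pass (3.15, adjusted p = 0.052).

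To see which of these differences depended on salt, the same genotype contrast was fitted in the -NaCl libraries. At -NaCl, 2105 genes were higher in NFAT5KO cells (12.5% of 16843) and 2194 lower (13%). Of the 2582 genes higher at +NaCl, 94% had the same sign at -NaCl and 58% passed there in the same direction. Of the 2805 lower genes these shares were 91.3% and 56.5%. Across 11293 genes with a mean of at least 50, the log2 differences in the 2 media correlated with Pearson r = 0.78 and Spearman rho = 0.75. This is a description across genes, which are not independent replicates, and both media contrasts share the clone. The libraries compared differ, but the -NaCl contrast took its scaling and spread from all 12.

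The difference between the 2 genotype differences passed the test, in a limma fit of all 12 libraries, for 292 genes. It was more negative at +NaCl for 231 of them (1.37%) and more positive for 61 (0.362%), or 23 to 51 with 1 library left out. The total dropped by over 1.5 times without control -NaCl replicate 1 (181) or 2 (165) and without control +NaCl replicate 1 (169), 2 (168) or 3 (156). Of the 231 genes, 181 passed as lower in NFAT5KO cells at +NaCl. At -NaCl, 96 of the 231 did not pass, 82 were higher in NFAT5KO cells and 53 were lower there too. The genotype contrast at +NaCl and this difference share the +NaCl libraries.

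**Figure D3:**
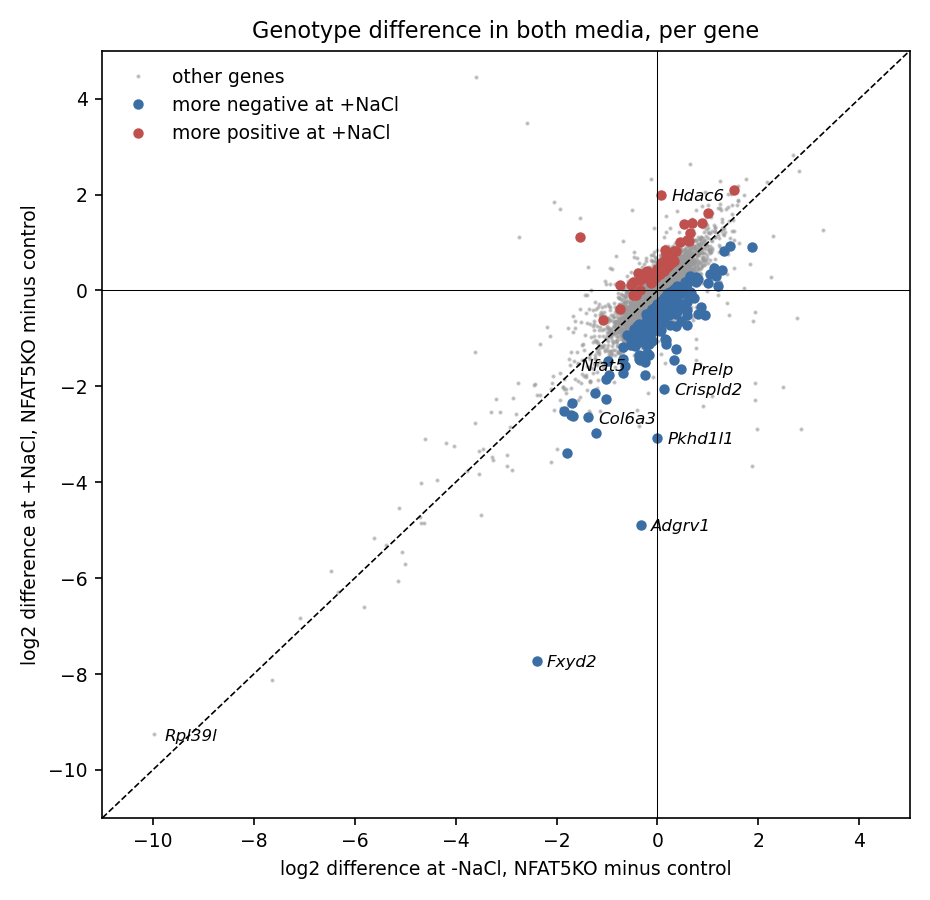
Log2 difference between NFAT5KO and control cells at -NaCl (horizontal axis) and at +NaCl (vertical axis), 1 point per gene with a mean of at least 50 normalized reads, coloured where the difference between media passed the test. Most points lie along the diagonal (r = 0.78), and the coloured points below it, such as Fxyd2, Crispld2 and Adgrv1, had a more negative difference at +NaCl.

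Crispld2 had the smallest adjusted p for the difference between media. On a scale set over all 12 libraries, its control level was 261 ± 17.6 normalized reads at -NaCl and 1211 ± 48.1 at +NaCl, and its NFAT5KO level was 286 ± 25 and 291 ± 12.7 (SD, n = 3 each). The genotypes were therefore close at -NaCl (log2 difference 0.13, adjusted p = 0.29) and apart at +NaCl, and the difference between media was -2.18 (SE 0.12, adjusted p = 5.9e-08). Fxyd2 had 8.18 ± 5.51 in control cells at -NaCl and 294 ± 28.3 at +NaCl, against 0.63 ± 0.57 and 0.42 ± 0.72 in NFAT5KO cells. Adgrv1, a large adhesion G protein-coupled receptor, had 9.15 ± 4.6 and 187 ± 14.1 against 6.8 ± 2.99 and 6.03 ± 3.83 (difference between media -4.57, SE 0.65, adjusted p = 0.0011). Pkhd1l1, a membrane protein related to fibrocystin, had 13.4 ± 1.58 and 132 ± 3.65 against 13.5 ± 3.21 and 15.3 ± 5.97 (-3.07). In these 4 genes the NFAT5KO means in the 2 media lay within 1 SD of each other, while the control mean was higher at +NaCl.

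Igfbp5 and Col6a3 combined a genotype difference in both media with a larger one at +NaCl. Igfbp5 had 1299 ± 10.7 normalized reads at -NaCl and 3606 ± 31.8 at +NaCl in control cells, against 1098 ± 96.0 and 1289.8 ± 44.0 in NFAT5KO cells (SD, n = 3; difference between media -1.24, SE 0.08, adjusted p = 3.4e-07). Col6a3 had 3483 ± 68.7 and 7505 ± 233 against 1334 ± 72.5 and 1199 ± 76.9 (-1.26, SE 0.08, adjusted p = 1.9e-07). Atp1b1 had 159 ± 9.86 and 293 ± 34.6 against 134 ± 15.3 and 86.0 ± 8.71 (-1.50, SE 0.19, adjusted p = 3.5e-04), so that its NFAT5KO mean was lower at +NaCl than at -NaCl. Of the genes of FGF23 and its processing, 5 passed, all with negative differences between media. These were Furin (-0.78, SE 0.09), Nfkbia (-0.61, SE 0.08), Vdr (-0.54, SE 0.09), Enpp1 (-0.48, SE 0.09) and Ankh (-0.40, SE 0.08), and Enpp1 was higher in NFAT5KO cells in both media. For Phex the value was -0.33 (SE 0.24, adjusted p = 0.60) and for Nfat5 itself 0.16 (SE 0.12, adjusted p = 0.60).

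Ranbp3l rose with salt in both genotypes. It had 147 ± 7.02 normalized reads at -NaCl and 1559 ± 97.9 at +NaCl in control cells, and 201 ± 83.4 and 665 ± 4.61 in NFAT5KO cells (SD, n = 3; difference between media -1.59, SE 0.25, adjusted p = 0.0025). Cemip followed the same course, with 296 ± 44.1 and 1632 ± 74.3 against 269 ± 77.7 and 641 ± 39.6 (-1.19). Aqp1 and Atp1b3 changed the sign of their genotype difference, at 0.37 and 0.21 at -NaCl (adjusted p = 2.5e-04 and 0.0019) and -0.25 and -0.28 at +NaCl. Their differences between media were -0.62 (SE 0.08) and -0.49 (SE 0.06). In the opposite direction, Abca9, an ABC transporter, had 382 ± 33.8 and 261 ± 16.9 in control cells against 552 ± 72.6 and 681 ± 27.1 in NFAT5KO cells (0.86, SE 0.14, adjusted p = 0.0028). Fbln5 had 409 ± 23.2 and 240.4 ± 9.89 against 1168 ± 13.4 and 1028 ± 27.3 (0.58, SE 0.09, adjusted p = 0.0021).

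Genotype differences were also read along the chromosomes. The 16656 placed genes were cut in chromosome order into 333 runs of about 50 neighbouring genes, and the median log2 difference of each run was taken. These medians had an SD of 0.10. The 3 lowest were -0.47 on chromosome 17 from 85356042 to 90756048 (Commd3 to Ero1lb, 29 genes, 12 lower and 1 higher), -0.47 on chromosome 11 from 81375246 to 84785893 (SNORA4 to Klhl6, 22 of 50 lower and 2 higher) and -0.45 on chromosome 11 from 84827062 to 90406797 (A930003A15Rik to Snai2, 38 of 70 lower and 1 higher). At -NaCl the same 3 runs had medians of -0.34, -0.48 and -0.48. Low runs were not confined to these chromosomes. Examples had medians of -0.39 on chromosome 13, -0.37 on chromosome 12 and -0.31 on chromosome 4 (-0.34, -0.39 and -0.28 at -NaCl). The highest medians were 0.28 on chromosome 5 from 16706082 to 28737719 (Rps20 to Necab1), 0.27 on chromosome 3 from 153072032 to 160038078 (SCARNA18 to Serinc3) and 0.21 on chromosome 20 from 154074 to 3344286 (RT1-CE10 to Ppp1r10). The chromosome 20 median was 0.07 without control replicate 2. Over all runs the medians in the 2 media correlated with r = 0.79, again with the clone in common. DNA copy number was not measured. Of the endoplasmic reticulum chaperones, Dnajb11 and Sdf2l1 lie in the low chromosome 11 runs, and Dnajb11 fell from 3169, 2905 and 3038 to 1829, 1814 and 1828 normalized reads (-0.73, SE 0.05).

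**Figure D4:**
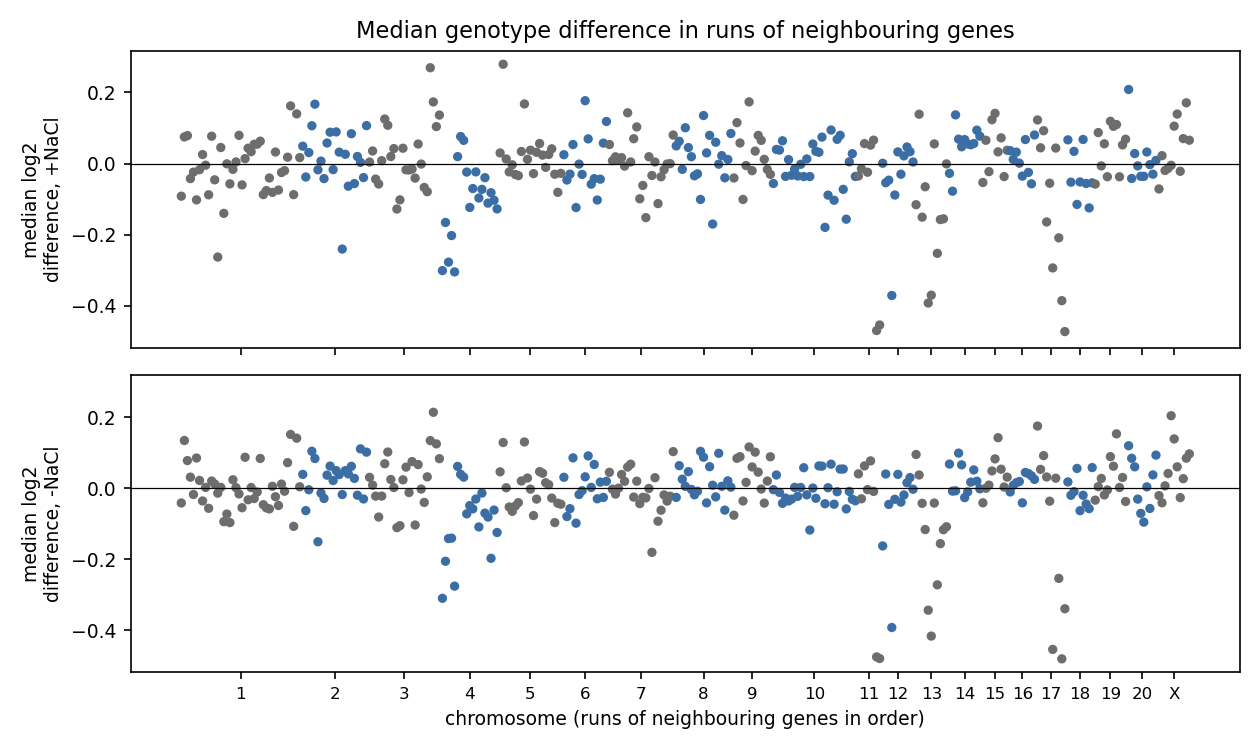
Median log2 difference between NFAT5KO and control cells in 333 runs of neighbouring genes, in chromosome order, at +NaCl (top) and at -NaCl (bottom), with 1 point per run. The lowest runs, on chromosomes 11 and 17 (-0.45 to -0.47 at +NaCl), are low in both media, as are others on chromosomes 4, 12 and 13.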

How the data were processed

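Poly-A RNA of 12 UMR-106 cultures was sequenced with paired reads by a commercial provider. The authors deposited 2 tables of gene values, one per genotype, in which read counts had been divided by size factors (a normalized signal), the tables being scaled separately. The aligner and counter are not given in the sources used here, nor is the use of strand, so overlapping, antisense and near-identical genes are uncertain. The submitters' processing notes name mm10, a mouse build, although the gene identifiers are of rat; positions are printed as the tables list them, with no build stated, apart from promoter windows (GRCr8). The file names and column names disagreed on the genotype, and the columns' sample labels were followed; the lower Nfat5 level in the columns labelled NFAT5KO goes with those labels. Of the columns, 24 carried no sample name of this series and were not used. Columns of the authors' own comparisons, holding log2 fold changes, p-values and adjusted p-values, were not used either.

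Each column was divided by its smallest step, which gave whole reads for 100% of values (tolerance 0.1 reads). Genes were joined by identifier (18058 in both tables of 19414 and 18834). The 6 +NaCl libraries were scaled together by median-of-ratios size factors (0.857 to 1.29), genes with a mean of at least 1 were kept, and limma 3.58.1 with a mean-variance trend was run in R 4.3.3 on log2(normalized reads + 1), with Benjamini-Hochberg adjustment. The unit called for limma with count tests as alternatives, namely the quasi-likelihood test of edgeR 4.0.16 and, separately, DESeq2 1.42.0, both fitted to the recovered reads. This scale understates fold changes of low genes. The difference between media was an interaction term over all 12 libraries, and the contrast at -NaCl came from the same fit. Exact binomial intervals (95%) for read ratios cover counting error only, since reads carried no molecular identifiers. Replicates are called biological by the submitters. The study gives culture conditions and defines its n as independent experiments, without a passage or day for each RNA-seq library. The p-values rest on the spread between these samples, and the NFAT5KO samples are cultures of a single clone.

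The comparison, the gene lists and the members named were chosen with earlier results of these data known. Named are Nfat5, the genes the study names, per direction the 15 largest differences and the 5 largest differences between media among genes averaging 50 or more normalized reads with an established symbol, and up to 4 members per list with the smallest p. Akr1b1, Slc6a6, Aqp1, Slc38a2, Atp1b3, Col6a2, Runx2, Sp7, Col1a1, Chac1, Trib3, Asns, Mki67, Col2a1, Dnajb11's place on its chromosome, the first and last genes of the runs and the genes of 1 table only were named outside this rule after their values were seen. The fits were tested on simulated data. Alternatives were another pseudocount, filter, scaling, model or tool, a replicate block, genes of either table and each library left out. Some genes the rule selects are not reported here.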

Additional observations from a re-analysis of the deposited data

Results flagged for a closer look

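For 47 of the genes named, the genotype difference at +NaCl differed from that at -NaCl by the interaction test (limma, adjusted p under 0.05). Values are log2 differences between media, negative where the NFAT5KO level relative to control was lower at +NaCl than at -NaCl, whichever genotype was higher at +NaCl.

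The genes of the tonicity response and of pump subunits gave -5.41 (Fxyd2, a fitted value that depends on the pseudocount), -1.59 (Ranbp3l), -1.50 (Atp1b1), -1.19 (Cemip), -0.90 (Itga10), -0.62 (Aqp1), -0.56 (Igfbp7), -0.49 (Atp1b3) and -0.37 (Akr1b1). Matrix and protease genes gave -2.18 (Crispld2), -2.12 (Prelp, a leucine-rich proteoglycan), -1.26 (Col6a3), -0.96 (Mmp13), -0.95 (Col6a1), -0.88 (Col11a2), -0.60 (Col6a2), -0.50 (Col22a1), 0.44 (Hapln1) and 0.58 (Fbln5). Mmp13 was higher in NFAT5KO cells in both media and more so at -NaCl (1.87 against 0.91).

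Genes of bone mineral and FGF23 gave -0.78 (Furin), -0.73 (Spp1), -0.61 (Nfkbia), -0.56 (Alpl), -0.54 (Vdr), -0.48 (Enpp1), -0.40 (Ankh) and -0.33 (Runx2). Signalling genes gave -1.24 (Igfbp5), -0.98 (Fzd6), -0.82 (Bmp2), -0.81 (Dusp1), -0.60 (Hhip), -0.30 (Lrp5), 0.52 (Sostdc1) and 0.56 (Dusp4). Bmp2, an osteogenic ligand, was higher in NFAT5KO cells at -NaCl (0.59) and lower at +NaCl (-0.23), although the latter did not pass without control +NaCl replicate 2 or 3 or NFAT5KO +NaCl replicate 1 (-0.19 to -0.22).

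The other genes gave -4.57 (Adgrv1), -3.07 (Pkhd1l1), -1.11 (Syt1), -0.97 (Laptm5), -0.63 (Hk1), -0.44 (Eno1), 0.34 (Tyms), 0.74 (Atp13a3), 0.86 (Dbf4), 0.86 (Abca9), 1.93 (Hdac6) and 2.65 (Zswim8). With 1 library left out, Akr1b1, Ankh, Atp13a3, Col22a1, Col6a1, Dbf4, Hapln1, Igfbp7, Lrp5, Runx2, Spp1, Syt1, Tyms and Zswim8 no longer passed in 1 or more of the fits. Zswim8 spread widely among replicates, with 81.0, 109 and 42.7 normalized reads in control cells at +NaCl and 122, 236 and 139 in NFAT5KO cells.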

How the results depend on the processing

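The genotype comparison at +NaCl called 5387 genes and between 3779 and 5510 under the other settings, 5344 with edgeR, 4861 with DESeq2 and 4195 to 5074 with 1 library left out; no gene called reversed its sign in any of them. With 1 library left out the higher genes numbered 2019 to 2468, the lower 2176 to 2606, and those at least 2-fold higher or lower 210 to 243 and 526 to 580. The difference between media was less stable. Its 292 calls became 484 with DESeq2 (139 more positive), 104 without a mean-variance trend (14 and 90) and 156 to 249 with 1 library left out (23 to 51 more positive, 131 to 207 more negative); the cause was not tested beyond the smaller number of libraries. The run from SNORA4 to Klhl6 on chromosome 11 had a median of -0.36 when genes averaging under 10 were left out and of -0.489 to -0.397 with 1 library left out, and the run from RT1-CE10 to Ppp1r10 on chromosome 20 of 0.069 to 0.243. Of 2 genes that did not pass, Col1a1 ranged from -0.092 to 0.025 with 1 library left out (positive without NFAT5KO +NaCl replicate 2) and Spp1 from -0.154 to 0.075 (positive without NFAT5KO +NaCl replicate 1). Of 181 named genes that passed, 160 passed under every alternative run. Equally numbered libraries of the 2 genotypes did not deviate together at +NaCl over genes averaging at least 50 normalized reads. Their correlations for numbers 1, 2 and 3 were -0.0096, -0.0076 and -0.058 there, and 0.118, 0.0078 and 0.0785 at -NaCl. Between unequal numbers at -NaCl the correlations ran from -0.153 to 0.0722. The libraries were not taken as paired, although single genes such as Tnfsf11 were high in both libraries numbered 3 at +NaCl. A fit with the replicate number as a block gave 5330 calls at +NaCl and 309 between media. Depth limits genes with a few reads, such as Fgf23.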

Other observations

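Tnfsf11, the RANKL gene that drives osteoclast formation, is given here as values only, for the identifier ENSRNOG00000009559. The libraries numbered 3 had 65.0 normalized reads in control cells and 62.7 in NFAT5KO cells at +NaCl, while each of the other +NaCl libraries had at most 5.4. This gene was chosen after its values were seen, and the groups overlapped.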
